A study of Mus musculus with 30 samples.

Results

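Metallothioneins and zinc transporters were followed in the extensor digitorum longus (EDL), a fast-twitch muscle of the hind limb, through 5 genes taken by symbol, without regard to case, from the deposited expression table: MT1, MT2, MT3, SLC39A14 and SLC30A1. The 5 genes are 5 of the 21073 genes in the table, and each was found once (the table spells the first pair Mt1 and Mt2). The RNA-Seq samples came from wild-type female SJL mice, 5 in each of 6 groups. On day 14, the time of peak disease, and on day 40, in remission, EDL muscle was taken from unimmunized mice (Ctrl), from mice given ovalbumin (OVA) in complete Freund's adjuvant, and from mice in which experimental autoimmune encephalomyelitis (EAE), a model of multiple sclerosis, had been induced with a myelin proteolipid protein (PLP) peptide in the same adjuvant. All groups share the strain, OVA-immunized and EAE-induced mice share the adjuvant, and pertussis toxin was not injected. The mice of day 40 are not those of day 14. Expression is given as RPKM, the reads of a gene scaled to its exon length and to the size of the library, so levels can be set side by side between genes.

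Metallothioneins are small cysteine-rich proteins that bind zinc and copper through their thiol groups and buffer free metal in the cell. MT1 and MT2 are induced in many tissues by zinc, glucocorticoids and inflammatory cytokines, the metal response running through the transcription factor MTF1 and metal response elements near the gene start, whereas MT3 is best known from the brain. Zinc crosses membranes through importers of the SLC39 (ZIP) family and exporters of the SLC30 (ZnT) family: SLC39A14 (ZIP14) brings zinc, iron and manganese into the cell, and SLC30A1 (ZnT1) is the exporter of the plasma membrane and itself an MTF1 target.

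The coding sequences of the 3 metallothioneins carry the feature that names the family, and are shown for it, with in-frame cysteine codons in capitals. They were read from the reference transcripts of the RefSeq-matched GENCODE annotation (GRCm38, the assembly also called mm10).
MT1: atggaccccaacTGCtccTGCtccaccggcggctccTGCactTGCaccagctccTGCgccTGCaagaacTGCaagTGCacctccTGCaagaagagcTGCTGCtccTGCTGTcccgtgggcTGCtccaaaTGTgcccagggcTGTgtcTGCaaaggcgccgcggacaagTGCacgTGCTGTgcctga
MT2: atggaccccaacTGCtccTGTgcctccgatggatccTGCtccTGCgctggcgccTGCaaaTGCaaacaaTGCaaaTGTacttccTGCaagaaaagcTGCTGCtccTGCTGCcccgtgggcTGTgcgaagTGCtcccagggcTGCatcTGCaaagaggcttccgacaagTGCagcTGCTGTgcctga
MT3: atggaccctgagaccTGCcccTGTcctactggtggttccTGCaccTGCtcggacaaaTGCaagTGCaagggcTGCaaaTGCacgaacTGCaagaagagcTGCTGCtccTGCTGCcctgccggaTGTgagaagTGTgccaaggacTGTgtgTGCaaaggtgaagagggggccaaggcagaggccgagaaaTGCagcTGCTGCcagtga
Each holds 20 cysteine codons, of 61 codons in MT1 and MT2 (32.8%) and of 68 in MT3 (29.4%). MT1 and MT2 have the same coding length, 186 bases, and are identical at 148 of these bases (79.6%). The longest stretch that their transcripts share is 20 bases, and MT1 and MT3 share one of 27 bases, in both cases shorter than a read of 150 bases; how reads that match several genes were assigned is not given in the sources used here.

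The metallothionein genes lie side by side on chromosome 8, plus strand, each with 3 exons: MT3 at chr8:94152607-94154146, MT2 at chr8:94172664-94173568 and MT1 at chr8:94179082-94180327, with 5513 bases between MT2 and MT1. SLC30A1 is at chr1:191906767-191913247 on the plus strand and SLC39A14 at chr14:70303469-70351425 on the minus strand. The 250 bases before the RefSeq start (GRCm38.p6) are shown for MT1, MT2 and SLC30A1, of which MT1 and MT2 moved together in these mice, with the core of the metal response element in capitals. The core was searched as TGCACNC and TGCGCNC on both strands, and no matches overlapped.
MT1, chr8:94178839-94179088, plus strand: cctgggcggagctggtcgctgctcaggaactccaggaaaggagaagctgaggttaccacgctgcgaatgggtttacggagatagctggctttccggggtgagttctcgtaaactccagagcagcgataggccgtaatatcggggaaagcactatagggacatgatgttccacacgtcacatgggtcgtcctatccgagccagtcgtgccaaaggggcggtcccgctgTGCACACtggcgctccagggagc
MT2, chr8:94172368-94172617, plus strand: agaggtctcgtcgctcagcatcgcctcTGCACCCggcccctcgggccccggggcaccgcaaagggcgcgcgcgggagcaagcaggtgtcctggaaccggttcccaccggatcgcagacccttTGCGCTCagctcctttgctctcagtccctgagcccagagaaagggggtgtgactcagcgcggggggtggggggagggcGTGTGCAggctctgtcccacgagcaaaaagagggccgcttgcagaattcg
SLC30A1, chr1:191906531-191906780, plus strand: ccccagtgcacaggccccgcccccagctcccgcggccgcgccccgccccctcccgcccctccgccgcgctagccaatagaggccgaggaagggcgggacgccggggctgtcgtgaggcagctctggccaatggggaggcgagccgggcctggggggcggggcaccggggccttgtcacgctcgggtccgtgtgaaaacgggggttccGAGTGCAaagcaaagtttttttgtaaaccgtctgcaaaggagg
The window of MT2 held 3 cores, those of MT1 and SLC30A1 1 each, and that of MT3 0. Of all 32841 promoter windows of this length, 21.4% held at least 1 core and 1.26% at least 3. In the metallothioneins the letters TATAAA stood inside the annotated leader, between transcript start and start codon, as they did in 2.85% of reference transcripts over the length of the MT1 leader. Further cores fell in the same leaders: 4 in MT1 (leader of 229 bases), 3 in MT2 (184 bases) and 3 in MT3 (193 bases). Of all reference transcripts, 0.179% held at least 4 cores in their first 229 bases, 0.627% at least 3 in the first 184 and 0.702% at least 3 in the first 193. The leaders begin at the GENCODE transcript starts (94179082 for MT1 and 94172664 for MT2). The windows follow the RefSeq starts, and end at 94179088 for MT1 and 94172617 for MT2. The count of a window alone is therefore not a full count of the cores near a gene start. A match of letters is a description and not a test of binding.

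Mapped reads per mouse, estimated from the steps between low values, were between 18.1M and 31.5M (median 21.6M). At this depth the lowest estimated number of reads behind a member's value in any mouse was 216 for MT1, 217 for MT2, 30.7 for MT3, 216 for SLC39A14 and 278 for SLC30A1, so MT3 is the member with the thinnest counts. All 12 markers of fast skeletal muscle fibres were expressed in every group. Of these, 2 (PVALB and TNNC2) were called lower, by the rule given below, in EAE-induced mice of day 14 than in either control group. Of all genes tested, 26.4% were called in either direction against unimmunized and 20.3% against OVA-immunized mice. The libraries also differed in the balance of short and long transcripts. The median of 170 genes with under 700 exon bases minus that of 1557 genes with over 5000, on a log2 scale relative to all mice, had a group median of 0.43 in unimmunized, 0.03 in OVA-immunized and -0.17 in EAE-induced mice on day 14, and of -0.38, -0.25 and -0.13 in the same order on day 40. MT1, MT2 and MT3 are short (549, 511 and 536 exon bases) and SLC39A14 and SLC30A1 long (5205 and 5244). The value of a member's difference after a correction for exon length is therefore given where it changes a call.

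MT1 and MT2 were among the more abundant transcripts of the muscle, and both had their highest group mean at peak disease: MT1 exceeded 96.7% of all genes by its mean level in unimmunized mice of day 14 and 98.6% in EAE-induced mice. On day 14 the 5 EAE-induced mice had 314.3, 229.4, 112.9, 94.0 and 164.0 RPKM of MT1. The 5 unimmunized mice had 136.3, 75.5, 86.0, 43.4 and 55.9 RPKM, and the 5 OVA-immunized mice 57.7, 33.0, 27.3, 49.2 and 164.2. The 3 highest EAE-induced mice lay above every unimmunized mouse, while the 2 lowest fell within the range of the unimmunized mice. Among OVA-immunized mice, replicate 5 stood far above the other 4 and reached the level of the EAE-induced mice, so that the groups overlapped in both comparisons. The means of MT1 were 183 ± 90.3 RPKM with EAE (SD, n = 5), 79.4 ± 35.9 without immunization and 66.3 ± 56.1 after OVA. Differences were tested with limma on log2(RPKM + 0.1), with the p-value adjusted over all genes tested, and a gene was called when the adjusted p was under 0.05 and the fold change over 1.5. MT1 was called higher in EAE-induced than in unimmunized mice, by 1.17 on the log2 scale (SE 0.44, adjusted p = 0.0387), which is 2.26-fold, and higher than in OVA-immunized mice by 1.64 (SE 0.44, adjusted p = 0.00844), which is 3.12-fold. By the same rule 26.4% of all genes tested were called between EAE-induced and unimmunized mice and 20.3% between EAE-induced and OVA-immunized mice, so that being called does not by itself set a gene apart on this day. The call against unimmunized mice was close to the threshold. It was lost in 7 of the 10 fits that left out 1 mouse (unimmunized replicate 2, 3, 4 or 5, or EAE-induced replicate 1, 2 or 5; log2 difference 0.94 to 1.23, adjusted p up to 0.0957), without the filter on low values (adjusted p = 0.0576) and with median-of-ratios scaling (adjusted p = 0.0535), and it had an adjusted p of 0.00211 after the exon length correction (log2 difference 1.45). The call against OVA-immunized mice held in all 22 alternatives.

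MT2, the metallothionein next to MT1, followed the same pattern at nearly the same level. In EAE-induced mice of day 14 it was measured at 380.1, 219.9, 111.7, 107.1 and 170.5 RPKM. The unimmunized mice had 148.9, 79.6, 87.4, 41.7 and 64.3 RPKM and the OVA-immunized mice 53.0, 37.7, 22.3, 51.9 and 191.8. The mouse that was highest in each group of this day for MT1 was also the highest for MT2, and the groups overlapped in the same way. MT2 was called higher in EAE-induced than in OVA-immunized mice, by 1.72 on the log2 scale (SE 0.49, adjusted p = 0.0114), or 3.28-fold, in all 22 alternatives too. Against unimmunized mice the difference was of the size of that of MT1, 1.19 (SE 0.49), but its adjusted p of 0.0538 missed the threshold, and the 95% confidence interval was 0.16 to 2.21. It passed in 8 of 22 alternatives, among them the exon length correction (1.48, adjusted p = 0.00437) and the fits without unimmunized replicate 1 or EAE-induced replicate 3 or 4. MT1 and MT2 thus fell on different sides of the threshold with nearly the same log2 difference.

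On day 40 the levels of MT1 and MT2 in EAE-induced mice overlapped those of both control groups. MT1 was 33.5, 20.9, 76.0, 40.7 and 60.3 RPKM in EAE-induced mice, 44.8, 26.2, 19.7, 68.8 and 45.0 in unimmunized mice and 19.8, 38.4, 30.0, 25.6 and 66.8 in OVA-immunized mice. MT2 was 60.4 ± 38.3, 50.3 ± 21.9 and 42.3 ± 24.8 RPKM (SD, n = 5) in these groups, in the same order. All 3 groups overlapped for both genes, and neither gene passed in any comparison of day 40. The log2 difference between EAE-induced and unimmunized mice was 0.17 for MT1 (95% confidence interval -0.63 to 0.97) and 0.13 for MT2 (-0.82 to 1.07), intervals wide enough to hold a near 2-fold change. Between the days, EAE-induced mice had lower MT1 on day 40 by -1.98 on the log2 scale (SE 0.44, adjusted p = 0.000534) and lower MT2 by -1.81 (SE 0.50, adjusted p = 0.00383), calls that held in all 20 alternatives, in a comparison in which 21.1% of genes were called. Unimmunized mice were also lower on day 40, by -0.98 for MT1 (adjusted p = 0.0839) and -0.75 for MT2 (adjusted p = 0.237), without passing. The change of the EAE difference against unimmunized mice between the days, an interaction over all 30 mice called at an adjusted p under 0.05, was -1.001 for MT1 (SE 0.62, adjusted p = 0.184) and -1.06 for MT2 (SE 0.71, adjusted p = 0.217), so that it was not shown to differ between days for either gene. After the exon length correction both passed, with -1.51 (adjusted p = 0.0154) and -1.59 (adjusted p = 0.0281). Against OVA-immunized mice the change was -1.30 for MT1 (SE 0.62, adjusted p = 0.104) and -1.31 for MT2 (SE 0.71, adjusted p = 0.150), and without OVA-immunized replicate 5 of day 14 it was -1.70 (adjusted p = 0.0243) and -1.77 (adjusted p = 0.0390).

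**Figure D1:**
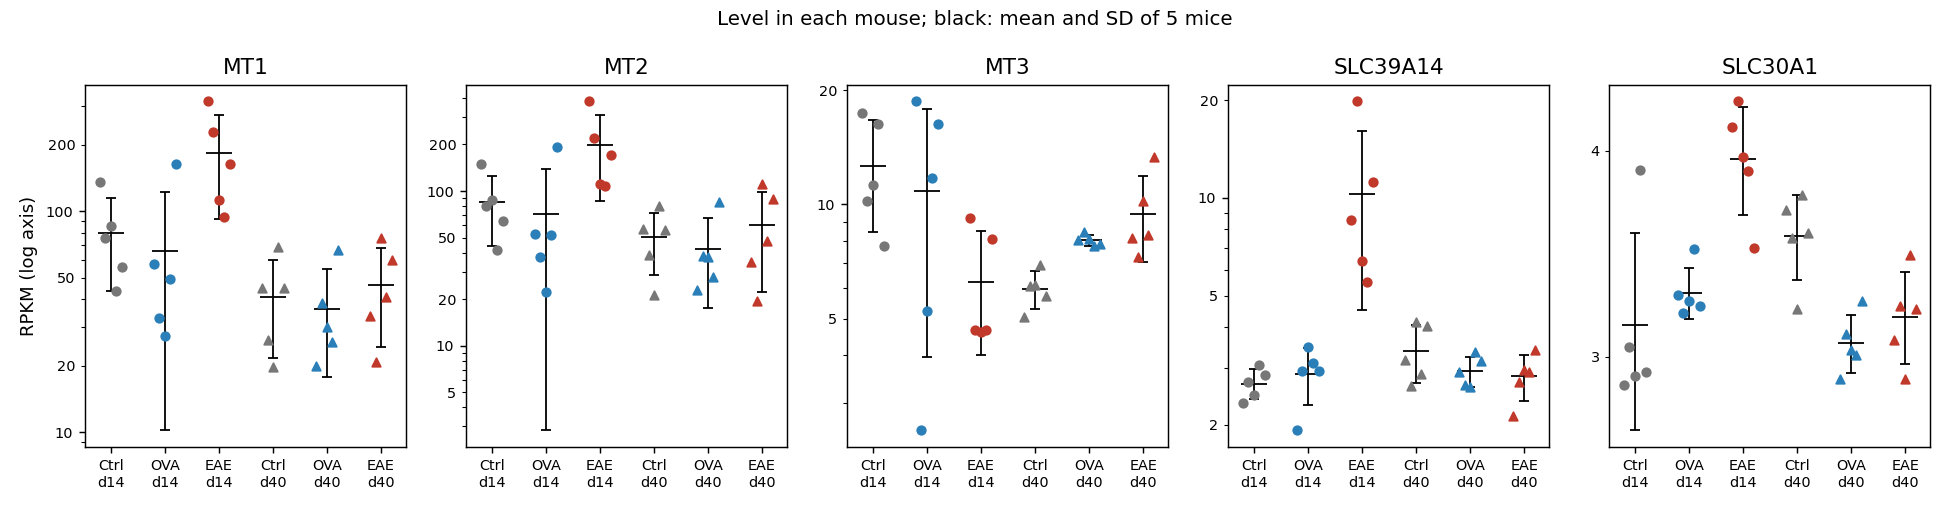
Level of each member (RPKM, log axis, a scale of its own in each panel) in every mouse of the 6 groups; circles are mice of day 14, triangles mice of day 40, and black marks the mean and SD of 5 mice. The EAE-induced mice of day 14 lie above every other mouse for SLC39A14 and overlap with the controls for MT1 and MT2.

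MT1 and MT2 rose and fell together from mouse to mouse. The ratio of MT1 to MT2 lay between 0.681 and 1.23 in all 30 mice, although the level of MT1 ranged from 19.7 to 314.3 RPKM. On day 14 the median ratio was 0.948 in unimmunized, 0.947 in OVA-immunized and 0.962 in EAE-induced mice, and on day 40 it was 0.810, 0.860 and 0.857. The ratio did not differ between the groups of a day beyond the spread between mice in any of the 6 comparisons (two-sided exact permutation test, adjusted p = 0.865 in each; the smallest p that 5 mice against 5 allow is 0.00794), and the log2 difference was between -0.073 and 0.106. Within groups, the deviations of MT1 and MT2 from their group means had a Pearson r of 0.981 and a Spearman rho of 0.983 over 30 mice (permutation within groups, p = 1e-05 for each, the smallest that 100000 permutations can give), and r was 0.973 without the 2 mice farthest from the median. This was the single relation tested in this way. Both genes are of about the same length, and short, so the balance of short and long transcripts enters both.

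**Figure D2:**
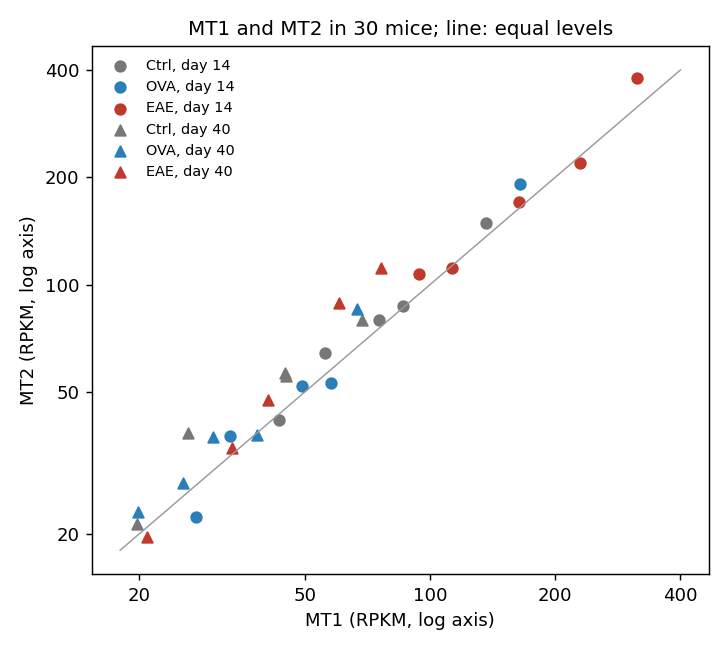
MT1 against MT2 (RPKM, both axes log) in 30 mice, with a line of equal levels; colours mark the treatment, circles day 14 and triangles day 40. The points keep to a ratio between 0.681 and 1.23 across the whole range of levels.

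MT3 was expressed at a far lower level and did not follow MT1 and MT2. The unimmunized mice of day 14 had 17.4, 10.2, 11.3, 16.3 and 7.75 RPKM, the OVA-immunized mice 18.7, 2.54, 5.22, 11.7 and 16.2, and the EAE-induced mice 9.21, 4.65, 4.62, 4.67 and 8.11. On day 40 the unimmunized mice had 5.06, 6.10, 6.13, 6.94 and 5.74 RPKM, the OVA-immunized mice 8.06, 8.44, 8.09, 7.76 and 7.84, and the EAE-induced mice 8.15, 7.25, 10.2, 8.32 and 13.3. On day 14 the EAE-induced mice were the lowest group on average and on day 40 the highest, and on day 40 no EAE-induced or OVA-immunized mouse reached down to the range of the unimmunized mice. MT3 made up 1.02% to 2.37% of the summed RPKM of the 3 genes in EAE-induced mice of day 14, and 3.47% to 16.1% in the mice of every other group.

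On day 14 the log2 difference of MT3 between EAE-induced and unimmunized mice was -1.003 (SE 0.44, adjusted p = 0.0698) and that against OVA-immunized mice -0.53 (SE 0.44, adjusted p = 0.357), and neither passed. Without OVA-immunized replicate 2, the mouse with 2.54 RPKM, the second difference was -0.96 (adjusted p = 0.0404). On day 40 MT3 was the 1 member called, higher in EAE-induced than in unimmunized mice by 0.62 on the log2 scale (SE 0.13, adjusted p = 0.0236), or 1.54-fold, in a comparison in which 0.46% of genes were called. This value sits close to the fold threshold. It did not pass after the exon length correction (0.41, adjusted p = 0.140), with all 30 mice in 1 model (adjusted p = 0.413), with a pseudocount of 1 (0.56, below the fold threshold) or in 5 of the 10 fits without 1 mouse (unimmunized replicate 1, 3 or 5, or EAE-induced replicate 3 or 5; log2 difference 0.49 to 0.63). Against OVA-immunized mice of the same day the difference was 0.20 (SE 0.13, adjusted p = 0.422), where 0.209% of genes were called, and OVA-immunized mice were above unimmunized mice by 0.42 (SE 0.13, adjusted p = 0.999), where 0% of genes were called (272 of 8706 had an unadjusted p under 0.05).

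MT3 was also the 1 member called between days in unimmunized mice, lower on day 40 by -1.002 on the log2 scale (SE 0.34, adjusted p = 0.0297), where 9.37% of genes were called. After the exon length correction that difference was -0.41 (adjusted p = 0.214), and the call was lost in 5 of 10 fits without 1 mouse (unimmunized replicate 1 or 4 of day 14, or 1, 3 or 5 of day 40). The EAE difference against unimmunized mice changed between the days by 1.62 (SE 0.48, adjusted p = 0.00754), a call that held in all 29 alternatives, with 1.11 (adjusted p = 0.0114) after the exon length correction. By the same rule 48.6% of genes were called. Across the 30 mice the level of MT3 had a Pearson r of 0.75 with the short-minus-long balance, against 0.45 for MT1, 0.42 for MT2, -0.35 for SLC39A14 and -0.22 for SLC30A1. These are descriptions over mice that share library preparation. The part of the balance in the MT3 results was not tested beyond the correction.

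**Figure D3:**
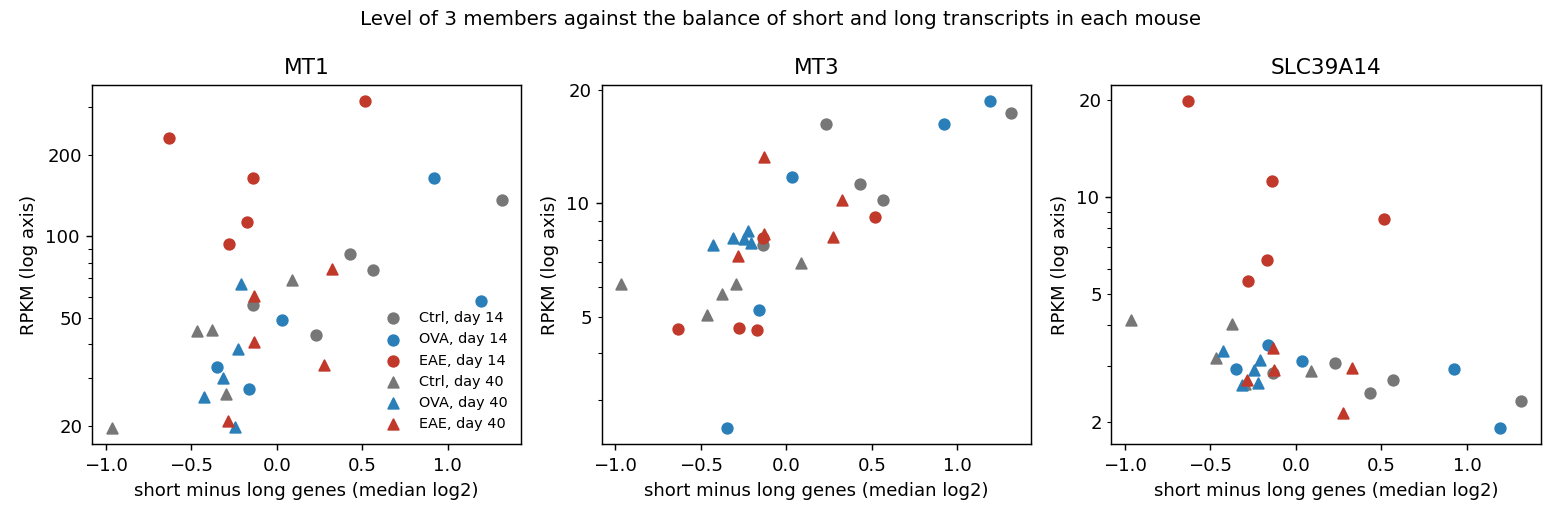
RPKM (log axis) of MT1, MT3 and SLC39A14 in each of the 30 mice against the balance of short and long transcripts, the median log2 value of genes under 700 exon bases minus that of genes over 5000. MT3 follows the balance most closely of the 3 (r = 0.75). For SLC39A14 the EAE-induced mice of day 14 stand above all others. Their balances lie between -0.63 and 0.52, while unimmunized mice reach -0.96 (day 40) and 1.32 (day 14).

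SLC39A14, the ZIP importer among the members, gave the clearest separation. On day 14 the EAE-induced mice had 8.56, 19.8, 6.37, 5.49 and 11.2 RPKM. The unimmunized mice had 2.33, 2.70, 2.46, 3.05 and 2.84 RPKM and the OVA-immunized mice 1.92, 2.93, 3.47, 3.09 and 2.93. Every EAE-induced mouse lay above every mouse of the other 5 groups, whose highest value was 4.15 RPKM. The means were 10.3 ± 5.77 RPKM with EAE (SD, n = 5), 2.68 ± 0.286 without immunization and 2.87 ± 0.575 after OVA. SLC39A14 was thus higher in EAE-induced than in unimmunized mice by 1.75 on the log2 scale (SE 0.27, adjusted p = 9.76e-05), or 3.37-fold, and higher than in OVA-immunized mice by 1.68 (SE 0.27, adjusted p = 0.000168), or 3.20-fold. Both calls held in all 22 alternatives, with 1.48 to 1.94 and 1.40 to 1.86 when 1 mouse was left out. By the same rule 26.4% of all genes tested were called in the first comparison and 20.3% in the second. How many of all genes separate the groups without overlap was not counted, here or for the other genes. Replicate 2 of the EAE-induced mice was the highest at 19.8 RPKM, and the lowest differences were those without it.

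On day 40 the levels of SLC39A14 overlapped those of both control groups, with 2.13, 2.70, 2.95, 2.91 and 3.39 RPKM in EAE-induced mice. The unimmunized mice had 3.17, 2.62, 4.15, 2.88 and 4.02 RPKM and the OVA-immunized mice 2.91, 2.65, 2.61, 3.34 and 3.13. The difference between EAE-induced and unimmunized mice was -0.24 (95% confidence interval -0.55 to 0.06, adjusted p = 0.269). The gene stayed under the filter of 3 RPKM, and was not tested, between EAE-induced and OVA-immunized mice of day 40, between OVA-immunized and unimmunized mice of day 14 and between the days in OVA-immunized mice, comparisons in which 0.209%, 0.142% and 3.97% of genes were called. EAE-induced mice were lower on day 40 than on day 14 by -1.69 on the log2 scale (SE 0.22, adjusted p = 4.83e-07), where 21.1% of genes were called. The EAE difference changed between the days by -1.996 against unimmunized mice (SE 0.31, adjusted p = 1.53e-05) and by -1.74 against OVA-immunized mice (SE 0.31, adjusted p = 0.000107), where 48.6% and 35.1% of genes were called. These 3 calls held in all of their alternatives, of which there were 20 for the first and 29 for each of the others.

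SLC30A1, the ZnT exporter of the plasma membrane, moved little. The EAE-induced mice of day 14 had 4.13, 4.29, 3.97, 3.89 and 3.49 RPKM, the unimmunized mice 2.89, 3.04, 2.92, 3.896 and 2.94 and the OVA-immunized mice 3.27, 3.19, 3.24, 3.49 and 3.22. The EAE-induced mice lay just above the OVA-immunized ones, and 1 unimmunized mouse, replicate 4, stood among them. The difference from unimmunized mice was 0.33 on the log2 scale (SE 0.11, adjusted p = 0.0189), or 1.26-fold, which is below the fold threshold, and that from OVA-immunized mice 0.26 (SE 0.11, adjusted p = 0.0660). After the exon length correction these differences were 0.08 (adjusted p = 0.607) and 0.07 (adjusted p = 0.678). On day 40 the group means were 3.55 ± 0.212 (Ctrl), 3.06 ± 0.123 (OVA) and 3.17 ± 0.203 RPKM (EAE; SD, n = 5), and no comparison passed. The EAE difference from unimmunized mice changed between the days by -0.49 (SE 0.12, adjusted p = 0.00152), where 48.6% of genes were called. The call was lost with quantile normalization (-0.26, adjusted p = 0.0926) and with the exon length correction (-0.08, adjusted p = 0.678).

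**Figure D4:**
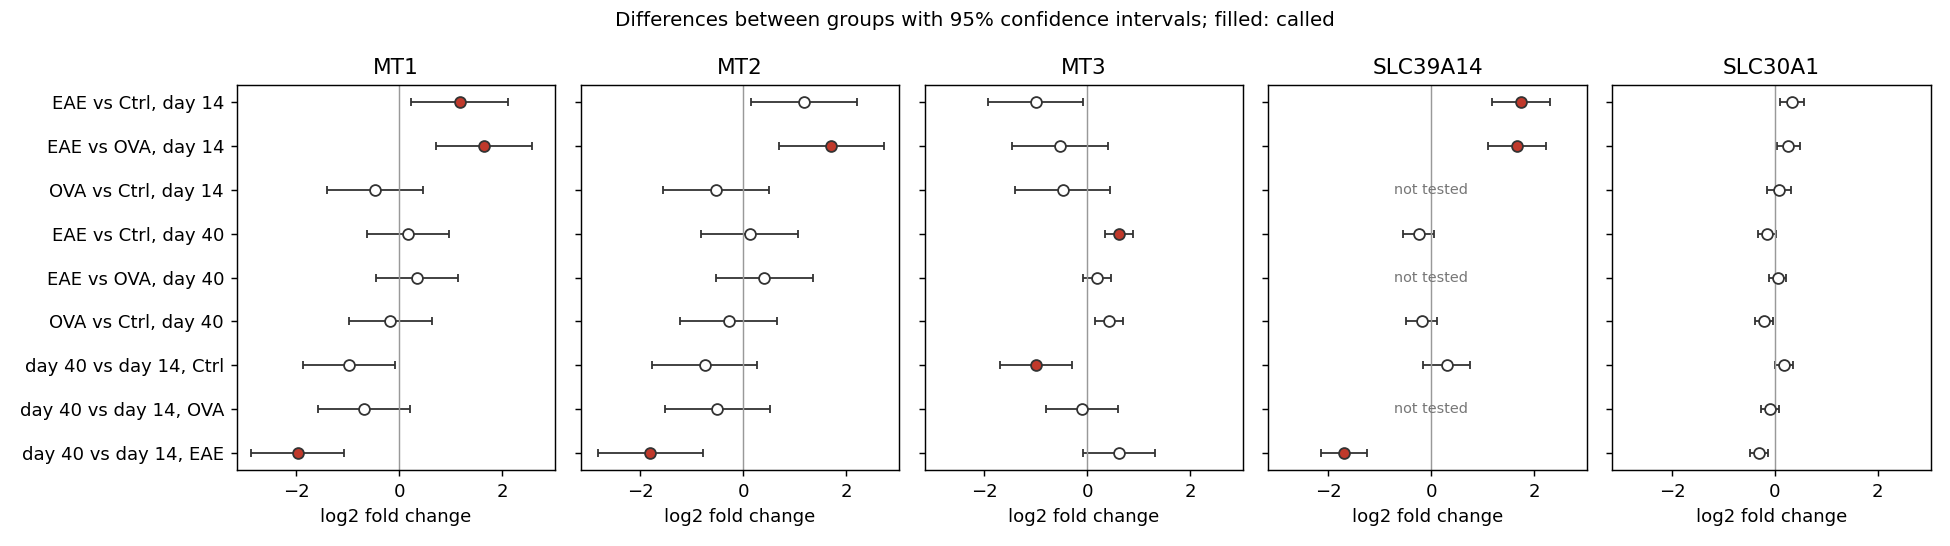
Log2 fold change of each member in the 6 comparisons within a day and the 3 between days, with 95% confidence intervals; filled points were called and open points were not. SLC39A14 was called in both EAE comparisons of day 14 and between days in EAE-induced mice, and MT3 on day 40 against unimmunized mice.

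When the 6 groups were put in order of their means, neighbouring groups overlapped at every step for MT1, MT2, MT3 and SLC30A1. For SLC39A14 the first step, from EAE-induced mice of day 14 (10.3 RPKM) to unimmunized mice of day 40 (3.37 RPKM), was the 1 step without overlap. No member was called between OVA-immunized and unimmunized mice on either day. The change of that difference between the days was called for 0% of genes (823 had an unadjusted p under 0.05).

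All 4 metallothionein genes, 10 ZnT genes and 14 ZIP genes of the families, and MTF1, were in the table. MT4, a metallothionein of stratified epithelia, was listed at 0 or at up to 0.460 RPKM and was not tested. In EAE-induced against unimmunized mice of day 14, 3 metallothioneins, 5 ZnT genes and 6 ZIP genes passed the filter, and beside MT1 and SLC39A14 none was called, in a comparison in which 26.4% of all genes were called. Against OVA-immunized mice, where 20.3% of genes were called, MT2 was called as well. The median log2 difference was 0.25 over the 5 ZnT genes and -0.17 over the 6 ZIP genes, against 0.11 over all genes tested. SLC30A4, a ZnT of vesicles, came nearest among the genes outside the 5, with 7.62 ± 0.683 against 5.07 ± 0.467 RPKM (SD, n = 5), no overlap between the groups and a log2 difference of 0.58 (SE 0.10, adjusted p = 0.000342), just below the fold threshold. SLC39A3, a ZIP of the plasma membrane, was at 6.73 ± 0.695 against 8.40 ± 0.837 RPKM, with -0.32 (SE 0.10, adjusted p = 0.0154), also below it. MTF1, the metal-sensing transcription factor, was at 4.17 ± 0.378 against 3.55 ± 0.368 RPKM, with 0.23 (SE 0.10, adjusted p = 0.0824). In the 9 comparisons within and between days no ZnT gene was called, and SLC39A14 was the 1 ZIP gene called. The change of the EAE difference against unimmunized mice between the days, which has no fold threshold, was called for SLC30A4 (-0.68, SE 0.13, adjusted p = 0.000153), for SLC30A5, a ZnT of the early secretory pathway (-0.55, SE 0.14, adjusted p = 0.00256), and for MTF1 (-0.43, SE 0.13, adjusted p = 0.00776), beside MT3, SLC30A1 and SLC39A14. Of all genes 48.6% were called by this rule. The SLC30A1 call was lost after the exon length correction (-0.078, adjusted p = 0.678). The calls of SLC30A4, SLC30A5 and MTF1 were not followed through that correction or the other alternatives.

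**Figure D5:**
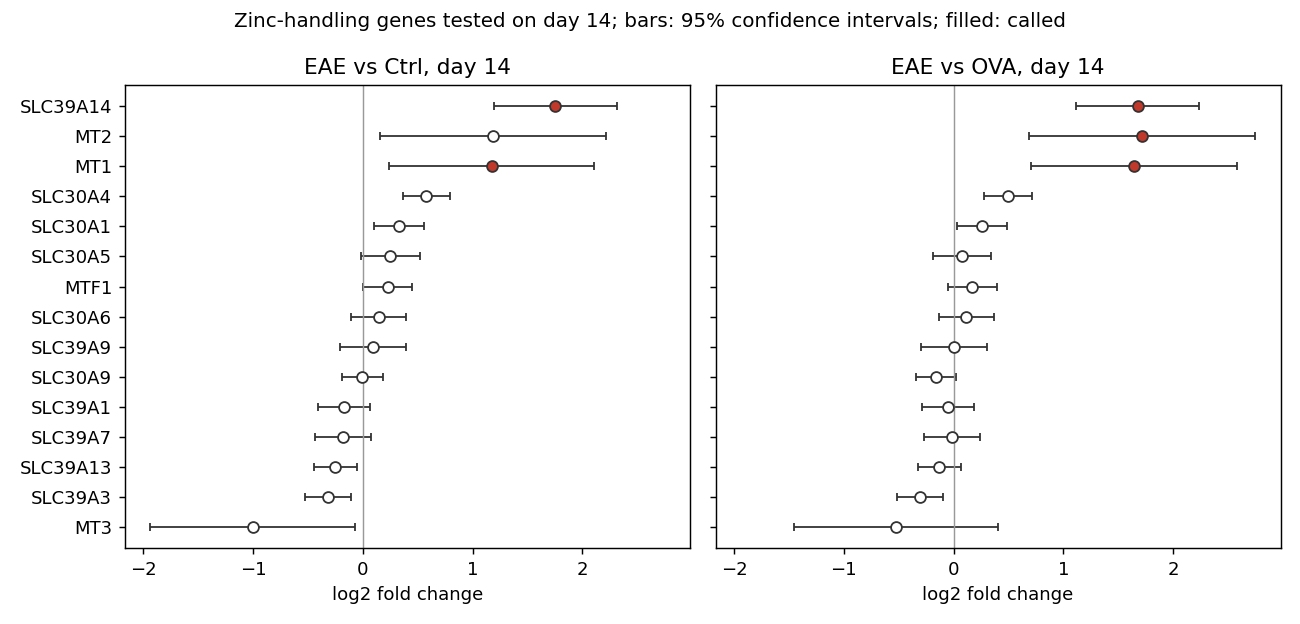
Log2 fold change of the 15 metallothionein, ZnT and ZIP genes, MTF1 included, that were tested on day 14, for EAE-induced against unimmunized (left) and OVA-immunized mice (right), with 95% confidence intervals; filled points were called. SLC39A14, MT1 and MT2 stand to the right of the other genes in both panels.

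Genes that respond to the same stimuli as metallothioneins were described by list. Their counts on day 14 stand against 26.4% of all genes called between EAE-induced and unimmunized mice (1282 higher and 1036 lower of 8771) and 20.3% between EAE-induced and OVA-immunized mice (957 higher and 805 lower of 8674), with a median log2 difference of 0.11 over all genes in each. Of 11 tested genes of the response to heavy metals and oxidative stress, 9 were called higher in EAE-induced than in unimmunized mice of day 14 and 6 against OVA-immunized mice, with 0 lower, and a median log2 difference of 1.11 and 0.72. GCLC and GCLM, the subunits of the enzyme that starts glutathione synthesis, rose against unimmunized mice by 0.86 (adjusted p = 0.00278) and 0.99 (adjusted p = 8.98e-05), and SRXN1, which repairs oxidized peroxiredoxin, by 1.68 (adjusted p = 0.000595). HMOX1, haem oxygenase, which heavy metals induce in many cells, was at 7.83 ± 1.52 against 8.30 ± 1.64 RPKM (SD, n = 5), with a log2 difference of -0.08 (adjusted p = 0.737). Of 12 glucocorticoid-responsive genes, 7 were called higher and 0 lower in each of these comparisons. Among them were FKBP5, a chaperone partner of the glucocorticoid receptor, higher by 2.40 (adjusted p = 0.000233) against unimmunized mice, and TSC22D3, by 0.66 (adjusted p = 0.00265). Of 12 tested genes of the response to IL-6 and STAT3, 6 were higher and 1 lower against unimmunized mice and 3 higher and 2 lower against OVA-immunized mice. IL6ST, the shared receptor chain of the IL-6 family, was higher by 1.02 against unimmunized mice (adjusted p = 0.00984) and was not called against OVA-immunized mice. IL6 itself stayed below a mean of 1 RPKM in all 6 groups. On day 40, 0 genes of these 3 lists were called against either control, where 0.46% (unimmunized) and 0.209% (OVA-immunized) of all genes were called. Values after the exon length correction were not taken for the genes of these lists. Over all genes, that correction gave 913 called higher and 1162 lower of 8658 between EAE-induced and unimmunized mice of day 14. The part of the short-minus-long balance in the differences of these lists was not tested.

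Metals other than zinc were compared in the same way. Of 8 tested genes of copper handling, ATOX1, a copper chaperone, was called lower in EAE-induced than in unimmunized mice of day 14 (-0.63, adjusted p = 0.0227), and of 12 genes of iron handling TFRC, the transferrin receptor (-1.01, adjusted p = 7.89e-06), HFE (-0.80, adjusted p = 0.000676) and STEAP3, an endosomal iron reductase (-0.59, adjusted p = 0.000218), were called lower and 0 higher. These counts, 1 of 8 and 3 of 12, were no larger a share than the 26.4% of all genes called in that comparison. Against OVA-immunized mice, where 20.3% of genes were called, ATOX1 was not called, SOD1, the copper and zinc superoxide dismutase, was called higher (0.74, adjusted p = 0.00629), and 3 iron genes were called lower (TFRC, HFE and SLC40A1, the iron exporter). No values after the exon length correction were taken for these genes, and the part of the short-minus-long balance in their differences was not tested.

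Markers of other cell types also differed between the groups of day 14. The summed level of 12 neutrophil markers was 4.74 to 10.6 RPKM in unimmunized mice of day 14, 65.5 to 230.8 in OVA-immunized mice and 202.8 to 394.3 in EAE-induced mice, and all 4 tested markers were called higher than in unimmunized mice in both EAE-induced and OVA-immunized mice (0.142% of all genes were called in the latter comparison). Between EAE-induced and OVA-immunized mice 1 of the 4, S100A8, was called higher, and the median log2 difference was -0.91. The defining markers ELANE, MPO, LY6G and MMP8 stayed at a mean below 1 RPKM in all 6 groups. Of 11 tested macrophage markers 6 were lower in EAE-induced than in unimmunized mice of day 14, of 12 endothelial markers 4 and of 11 fibroblast markers 10, and 0 higher, beside 26.4% of all genes called in either direction (1036 of 8771 lower). The 4 tested erythroid markers were all called lower in EAE-induced mice, with a median log2 difference of -2.36 against unimmunized and -3.55 against OVA-immunized mice. Of 8 slow fibre markers 4 (TNNC1, TPM3, MYL2 and MYL3), and of 12 fast fibre markers 2 (PVALB and TNNC2), were called lower in EAE-induced mice against each control group. Of 4 tested satellite cell markers 2 (MYOD1 and CDH15) were called higher and 0 lower against each, where 26.4% (unimmunized) and 20.3% (OVA-immunized) of all genes were called. The 8 satellite cell markers summed to 49.4 to 128.4 RPKM in EAE-induced and 32.0 to 44.9 in unimmunized mice of day 14. PAX7 and CALCR among them stayed below a mean of 1 RPKM. The part of these cells and fibres in the levels of MT1, MT2 and SLC39A14 was not tested. In RNA from whole muscle a change in the number of cells of a type and one in RNA per cell cannot be told apart. The part of the balance of short and long transcripts in the differences of these markers was not tested either.

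The genes whose pattern over the 30 mice was most like that of each member were taken by Pearson r of log2(RPKM + 0.1) among 9048 genes, as a description. For SLC39A14 these were LPIN2 (r = 0.963), AMPD3 (0.958), RUNX1 (0.952), TMEM64 (0.946) and TXNRD1 (0.943). The mean of AMPD3, the AMP deaminase, was 20.9 RPKM in EAE-induced mice of day 14 and 2.53 to 3.86 in the other 5 groups, and that of RUNX1, a transcription factor, 11.5 RPKM against 1.28 to 1.84. For MT1 the nearest gene was MT2 (r = 0.983), followed by PEF1 (0.915), PPP1R14B (0.895), TXN1, a thioredoxin (0.890), and CARD19 (0.882). For MT2 the genes after MT1 were PEF1 (0.879), EIF3D (0.874), RRAD (0.862) and CLTB (0.862). MT3 had lower Pearson r, led by MRPL27, a mitochondrial ribosomal protein (0.819), and SLC30A1 the lowest, led by WEE1, a cell cycle kinase (0.794). By Spearman rho the order was another. It was 0.853 for MT3 with MRPL27 and 0.737 for SLC30A1 with WEE1. For SLC39A14 it was 0.679 with LPIN2 and 0.820 with AMPD3. The points share the libraries and the contrast of EAE-induced mice of day 14 with the rest.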

How the data were processed

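RNA-Seq of EDL muscle was measured in 30 mice. Per the labels and the study's methods, poly(A) RNA was made into directional libraries and sequenced in paired ends, reads were aligned to mm10 with Subread, counted over RefSeq genes with featureCounts and scaled to RPKM. The values the authors deposited are on a log2 scale, log2(RPKM + 1), with 0.0001 where a gene had no read; read steps in 872 low genes were whole multiples (tolerance 0.1) for 98.5% of values on this scale, and values were converted back to RPKM. The members and gene lists were chosen with earlier results of these data known.

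Groups came from the labels. Genes with a mean above 3 RPKM in a compared group were tested with limma 3.58.1 (R 4.3.3; lmFit, eBayes with trend) of log2(RPKM + 0.1). The model held the 15 mice of a day, or all 30 between days, and p-values were adjusted by Benjamini-Hochberg over all genes tested. Counts were not used, so a count test was not run. The model was tested on simulated data. Exon lengths came from GENCODE vM21 and promoter windows from RefSeq, which held 4 of the 5 members. Mapped reads per mouse (18.1M to 31.5M) were estimated, and the reads behind each value with them, so they cover counting error only. Over 11209 genes no pair of mice in a group came closer than 8.34 times sampling noise, so none was a copy. Labels give separate mice per group. Alternatives were the pseudocount (1, 0.01), the filter (none, 1 RPKM), median-of-ratios and quantile scaling, other sets of mice, a replicate block, no fold threshold, no trend and leaving out each mouse; the exon length correction (a lowess of each mouse's deviations on log length) was added after the data were seen. Named genes were the 5 members, zinc-family genes by counts, and up to 3 called genes a list in list order; SLC39A3 and HMOX1 were named after their values were seen. Not all list genes passed the filter.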

Additional observations from a re-analysis of the deposited data

Results flagged for a closer look

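Of 30 sets of 5 mice (5 members in 6 groups), 5 held a mouse whose gap to the nearest other mouse, as a share of the range, was above the critical value of 0.71. For independent sets of normally distributed values chance gives about 1 in 20. The gaps were taken on RPKM and not on the log2 scale of the tests, and each flagged mouse was the highest of its set. MT1 and MT2 moved together, so the sets are not independent. The highest OVA-immunized mouse of day 14 had 164.2 RPKM of MT1 and 191.8 of MT2, both in replicate 5, and the highest OVA-immunized mouse of day 40 had 85.2 RPKM of MT2. For SLC30A1 the highest unimmunized mouse of day 14 had 3.896 RPKM and the highest OVA-immunized mouse of that day 3.49.

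The difference between EAE-induced and unimmunized mice changed between the days, by a test of the change itself in limma, for MT3 (log2 change 1.62, adjusted p = 0.00754), SLC30A1 (-0.49, adjusted p = 0.00152) and SLC39A14 (-1.996, adjusted p = 1.53e-05), and the difference from OVA-immunized mice changed for SLC39A14 (-1.74, adjusted p = 0.000107). By this rule 48.6% of all genes were called for the first change and 35.1% for the second. After the exon length correction the change for SLC30A1 was -0.078 (adjusted p = 0.678), and its call was lost.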

How the results depend on the processing

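The SLC39A14 calls, and those of MT1 and MT2 against OVA-immunized mice on day 14 and between days in EAE-induced mice, held in every alternative run, no called direction reversed, and no call on the MT1 to MT2 ratio appeared. In EAE-induced against unimmunized mice of day 14, MT1 lost its call without a filter (log2 difference 1.17) and with median-of-ratios scaling (1.14). MT2 gained one with quantile normalization (1.16), with only the compared mice or all 30 mice (1.19 each) and with the exon length correction (1.48), and MT3 with only the compared mice or all 30 (-1.003). SLC30A1 gained one without a fold threshold (0.33; between days in EAE-induced mice -0.31).

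MT3 on day 40 against unimmunized mice lost its call with a pseudocount of 1 (0.56), with only the compared mice or all 30 (0.62) and with the exon length correction (0.41). With that correction MT3 between days changed by -0.41 in unimmunized mice (call lost) and 0.70 in EAE-induced mice (call gained). For the change of the EAE difference between days, the correction gave -1.51 (MT1), -1.59 (MT2) and -0.078 (SLC30A1) against unimmunized and -1.63 (MT1) and -1.66 (MT2) against OVA-immunized mice, and quantile normalization -0.26 for SLC30A1. The causes were not tested.

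Replicate numbers are shared between groups, and the correlation of same-numbered mice was over 0.1 for at most 3 of 5 numbers in any comparison. It reached 0.70 between EAE-induced and OVA-immunized mice of day 14, and 0.61 between OVA-immunized and unimmunized mice of that day. Its lowest values were -0.73 between OVA-immunized and unimmunized mice of day 14 and -0.55 between EAE-induced and unimmunized mice of day 40. The mouse of the same number was the best match for at most 1 of 5 numbers in any comparison. Whether same-numbered mice shared a batch was not settled by these values. With the replicate block, MT2 (1.19, adjusted p = 0.0262) and MT3 (-1.003, adjusted p = 0.0225) gained a call against unimmunized mice on day 14, and MT3 lost that of day 40 (0.62, adjusted p = 0.0832).

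With 1 mouse left out, the log2 differences ranged from 0.94 to 1.40 for MT1 and 0.91 to 1.42 for MT2 (EAE-induced against unimmunized, day 14), from -0.96 to -0.25 for MT3 (against OVA-immunized, day 14) and from 0.49 to 0.71 for MT3 (against unimmunized, day 40). Between days in unimmunized mice they ranged from -1.20 to -0.75 for MT1 and from -1.16 to -0.87 for MT3. The change of the EAE difference from OVA-immunized mice ranged from -1.70 to -1.04 (MT1), -1.77 to -0.97 (MT2) and 0.45 to 1.16 (MT3), each passing in 1 fit, without OVA-immunized replicate 5 (MT1, MT2) or 2 (MT3) of day 14. Depth limits MT3 most, with 30.7 estimated reads in the lowest mouse.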
